A study of Mus musculus with 4 samples.

Results

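Mitochondrial ribosomal protein genes were examined in LSK cells of SRC-3 knockout (KO) and wild-type (WT) mice. They were taken as every gene on the array whose symbol starts with Mrpl or Mrps and a number. Probe sets annotated with several genes were left out, and a gene with several probe sets was represented by the one with the highest mean over the 4 arrays. This gave 71 genes, 43 of the large subunit (Mrpl) and 28 of the small subunit (Mrps), among 22180 genes tested. LSK cells carry Sca1 and c-Kit but no lineage markers, and this bone marrow fraction includes the blood stem cells and multipotent progenitors. The SRC-3 protein, product of Ncoa3, helps nuclear receptors and other DNA-binding factors to activate their target genes. The cells were sorted from the femur and tibia of male mice aged 8 weeks, WT in 2 samples and SRC-3 KO in 2, and each sample was hybridised to 1 Affymetrix array. The labels name the samples biological replicates but give neither the number of mice behind a sample nor the allele, so the p-values measure only how far these samples spread, and that spread may be technical.

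The mitochondrial ribosome translates the few messenger RNAs of the mitochondrial genome, all of which encode subunits of the oxidative phosphorylation complexes. Its RNAs are made inside the organelle, whereas all of its proteins are encoded in the nucleus, made in the cytosol and imported. The small subunit decodes the messenger RNA, and the large subunit joins the amino acids and passes the growing chain through an exit tunnel to the inner membrane. In blood stem cells mitochondrial activity is low in the resting state and increases as cells divide and differentiate.

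Ncoa3 itself, the targeted gene, was read at log2 values of 7.76 and 7.05 on the WT arrays and 5.35 and 5.09 on the KO arrays. It was 4.55-fold lower in KO (log2 difference -2.19 ± 0.27, standard error, limma adjusted p = 0.038), in the direction that the labels give, though they do not state which part of the gene was deleted. Of all genes, 88 were higher and 25 lower in KO at an adjusted p under 0.05, or 320 and 42 when each array was centred on its median. The array medians lay between 3.84 and 4.05 log2 units. Of 5 LSK markers measured, 3 had a lower mean in KO and 2 a higher mean. Among the lower ones, Kit read 10.33 and 9.65 in WT and 9.43 and 9.34 in KO. Cd34 read 10.86 and 10.73 in WT and 10.15 and 10.08 in KO. Ly6a, which encodes Sca1, was not analysed here.

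All 71 mitochondrial ribosomal protein genes had a higher mean in KO than in WT, against 49.7% of all genes. The median log2 difference was 0.73, or 1.66-fold, with an interquartile range of 0.59 to 0.89 and extremes of 0.05 and 1.42. The median over all genes was -0.001, and over genes at or above the median signal, a class that held 70 of the 71, it was 0.04. In 70 of the 71, both KO arrays lay above both WT arrays, against 25.1% of all genes and 34.4% of genes at or above the median signal. The difference reached 1.5-fold in 54 genes, against 6.79% of all genes, and 2-fold in 8, against 1.38%. Among all 22180 differences, 63 of the 71 were at or above 0.48, the limit of the highest 10 percent.

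By test, 2 of the 71 genes passed an adjusted p under 0.05 (limma, adjusted over all genes), both higher in KO, where 0.397% of all genes passed. At an unadjusted p under 0.05, 63 were higher, against 10.5% of all genes and 17.5% of those at or above the median signal. None was lower at that unadjusted threshold, where 6.93% of all genes were. The adjusted count turned on single arrays, and 1 array left in a group was assumed to vary like the other group. It was 44 without WT replicate 1 and 56 without WT replicate 2, where 6.5% and 7.8% of all genes passed in the same direction. No gene of the array passed without either KO replicate. There limma's unadjusted calls were 14 of the 71 without KO replicate 1, against 3.77% of all genes, and 17 without KO replicate 2, against 4.39%. Calls thus rose or fell over the whole array. The median difference stayed between 0.62 and 0.90 over the same 4 fits.

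**Figure D1:**
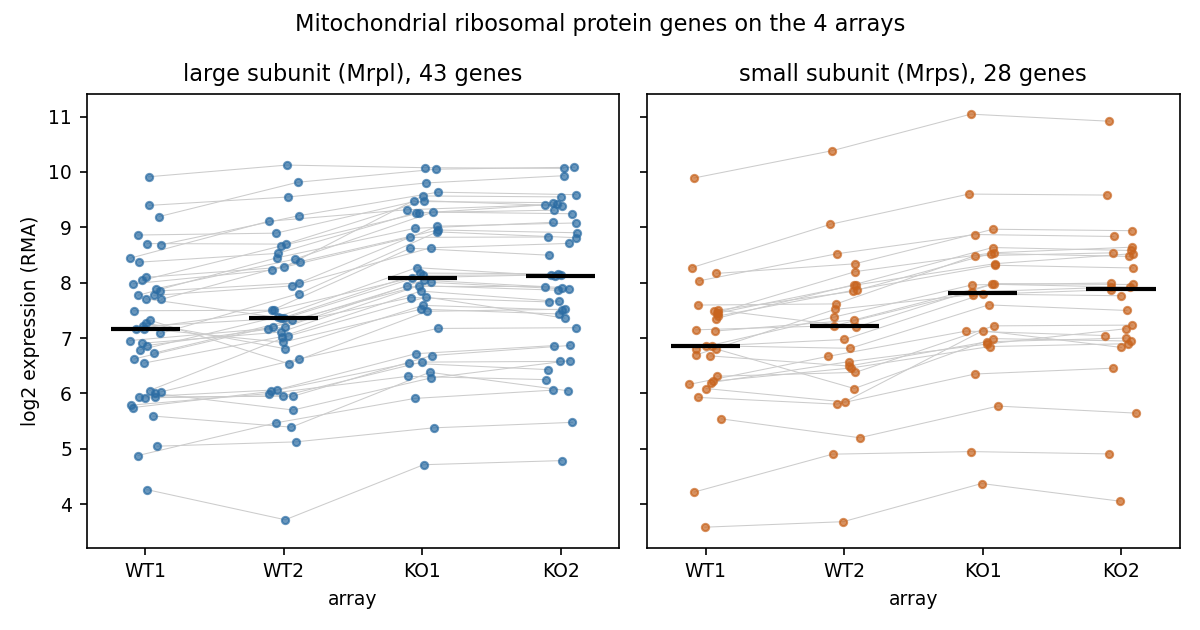
Log2 signal (vertical axis) of each of the 71 genes on the 4 arrays (horizontal axis), with 1 point per gene joined by a grey line, a black bar at the median and the subunits in separate panels. The median of the large-subunit genes went from 7.17 and 7.35 on the WT arrays to 8.09 and 8.12 on the KO arrays, and that of the small-subunit genes from 6.86 and 7.21 to 7.81 and 7.89.

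The genes that passed the adjusted test were Mrpl16 and Mrpl17, homologs of bacterial large-subunit proteins. Mrpl16, whose protein lies near the site where amino acids are joined, read 8.10 and 8.28 in WT and 9.57 and 9.55 in KO. Both KO arrays lay more than 1 log2 unit above both WT arrays, and the replicates of each group lay close together. It rose 2.58-fold (log2 difference 1.37 ± 0.15, standard error, adjusted p = 0.029). Mrpl17 read 7.85 and 7.99 in WT and 9.02 and 9.08 in KO, again with no overlap. It rose 2.18-fold (1.13 ± 0.15, adjusted p = 0.0497), just inside the threshold, and its adjusted p was 0.056 when the fit did not let the spread vary with signal.

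Promoter sequences are shown for Mrpl16 and Mrpl17, for Mrps11, which had the smallest p of the small subunit, for Mrpl58, which carries a repeated match, and for Mrpl24, which had the smallest difference of all. The sequences are from RefSeq on GRCm38.p6 and run from 250 bases before the gene start to 30 bases after it, on the gene's strand. Mrpl16 lies at chr19:11770165-11770444 on the plus strand and Mrpl17 at chr7:105811058-105811337 on the minus strand. Mrps11 lies at chr7:78782881-78783160, Mrpl58 at chr11:115403502-115403781 and Mrpl24 at chr3:87919294-87919573, all on the plus strand. Capitals mark matches, on either strand, to the letters of 4 motifs. These were GCGC and TGCGC with any base between them for NRF1 (nuclear respiratory factor 1), CCGGAAG for the ETS family, to which the respiratory regulator GABP belongs, AAGATGGC for YY1, and CACGTG for the E-box bound by MYC and other factors.

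Mrpl16: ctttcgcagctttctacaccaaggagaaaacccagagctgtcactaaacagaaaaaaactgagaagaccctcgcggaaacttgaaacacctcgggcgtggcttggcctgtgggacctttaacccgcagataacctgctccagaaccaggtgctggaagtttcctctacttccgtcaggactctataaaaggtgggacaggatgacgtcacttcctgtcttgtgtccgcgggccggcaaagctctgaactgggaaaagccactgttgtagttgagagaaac
Mrpl17: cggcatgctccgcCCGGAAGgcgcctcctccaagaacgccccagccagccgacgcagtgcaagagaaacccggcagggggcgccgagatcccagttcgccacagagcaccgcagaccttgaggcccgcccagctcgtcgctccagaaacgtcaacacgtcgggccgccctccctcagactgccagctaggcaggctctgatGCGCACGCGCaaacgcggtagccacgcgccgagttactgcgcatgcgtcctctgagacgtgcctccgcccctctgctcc
Mrps11: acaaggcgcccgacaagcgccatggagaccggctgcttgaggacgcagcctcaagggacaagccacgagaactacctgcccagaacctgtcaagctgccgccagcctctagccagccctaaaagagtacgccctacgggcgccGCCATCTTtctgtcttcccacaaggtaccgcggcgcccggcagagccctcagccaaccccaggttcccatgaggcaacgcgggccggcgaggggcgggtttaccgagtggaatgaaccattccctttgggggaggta
Mrpl58: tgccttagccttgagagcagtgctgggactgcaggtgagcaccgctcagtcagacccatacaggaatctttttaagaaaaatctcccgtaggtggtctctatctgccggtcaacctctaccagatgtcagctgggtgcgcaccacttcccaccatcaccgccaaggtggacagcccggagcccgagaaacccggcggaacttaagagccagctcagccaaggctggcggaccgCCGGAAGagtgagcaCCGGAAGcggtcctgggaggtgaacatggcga
Mrpl24: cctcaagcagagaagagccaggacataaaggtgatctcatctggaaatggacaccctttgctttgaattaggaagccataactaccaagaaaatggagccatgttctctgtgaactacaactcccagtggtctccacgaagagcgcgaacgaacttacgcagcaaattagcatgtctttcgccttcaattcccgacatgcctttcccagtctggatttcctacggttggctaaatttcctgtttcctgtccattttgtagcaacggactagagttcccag

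Mrpl17 held an NRF1 match starting 49 bases before its start and an ETS match 237 bases before it. Mrps11 held a YY1 match 107 bases before its start, and Mrpl58 held ETS matches 17 and 2 bases before its start. Neither Mrpl16, with the smallest p, nor Mrpl24, with the smallest difference, held any of the letters in this window. Of the 71 genes, 62 had a promoter entry, and in the full windows of 300 bases the ETS letters were found in 22 of them (35.5%), against 9.12% of 27025 promoters. YY1 letters were found in 12 (19.4% against 2.88%), NRF1 letters in 11 (17.7% against 4.78%) and E-box letters in 5 (8.06% against 7.24%). At least 1 of the NRF1, ETS and YY1 motifs stood in 37 promoters (59.7% against 15.2%), and the median guanine and cytosine content was 58.2% against 52.7%. The median log2 difference was 0.76 for the genes with such a match and 0.70 for those without, and by motif it was 0.72 and 0.73 for NRF1, 0.74 and 0.72 for ETS and 0.72 and 0.73 for YY1. The letters of NRF1, ETS and YY1 stood in a larger share of these promoters than of all promoters, and the medians of genes with and without them lay within 0.1 log2 units. The 27025 promoters were not matched to these genes for signal or for guanine and cytosine content.

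Among the other large-subunit genes, the smallest p-values belonged to Mrpl19, Mrpl54, Mrpl36 and Mrpl28, none of which passed the adjusted test. Mrpl19, a homolog of a bacterial protein, read 7.49 and 7.50 in WT and 8.62 and 8.50 in KO (log2 difference 1.06 ± 0.16, adjusted p = 0.059). Mrpl54, found only in mitochondrial ribosomes, read 7.08 and 7.80 in WT and 8.92 and 8.81 in KO. Its KO mean was 2.68-fold the WT mean (1.42 ± 0.25, adjusted p = 0.079), the largest difference of the 71, and its WT arrays stood 0.72 log2 units apart. Mrpl36 read 8.37 and 8.53 in WT and 9.27 and 9.31 in KO. Mrpl28 read 7.21 and 7.35 in WT and 8.17 and 8.16 in KO. The arrays of the genotypes did not overlap in any of these genes.

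The stalk is the arm of the large subunit that recruits the translation factors, and its genes Mrpl10, Mrpl11 and Mrpl12 were all higher in KO at an unadjusted p under 0.05. Mrpl11, at the base of the stalk, read 6.91 and 7.11 in WT and 7.95 and 7.86 in KO (log2 difference 0.90 ± 0.17). Mrpl12, which can also bind the mitochondrial RNA polymerase, read 5.93 and 5.95 in WT and 6.68 and 6.87 in KO (0.83 ± 0.18). Mrpl10 read 6.00 and 5.70 in WT and 6.28 and 6.59 in KO (0.59 ± 0.21), while a second, dimmer probe set for Mrpl10 differed the other way, by -0.57. The direction for Mrpl10 therefore rests on which probe set is read.

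The genes for proteins around the exit tunnel spanned a wide range. Mrpl22 read 6.73 and 7.32 in WT and 8.00 and 7.88 in KO (log2 difference 0.92 ± 0.23), and Mrpl47 read 6.55 and 7.03 in WT and 7.85 and 7.66 in KO (0.97 ± 0.22). Mrpl23 read 8.68 and 9.21 in WT and 9.63 and 9.59 in KO (0.66 ± 0.20). These 3 genes were higher at an unadjusted p under 0.05. Mrpl45, which helps to hold the ribosome at the inner membrane, read 5.79 and 6.00 in WT and 6.31 and 6.25 in KO, and its difference of 0.39 had a 95% interval from -0.05 to 0.82. Mrpl24 read 9.91 and 10.12 in WT and 10.08 and 10.06 in KO. It was the single gene of the 71 whose arrays overlapped between genotypes, with a difference of 0.05 and a 95% interval from -0.28 to 0.39. That difference was -0.01 after quantile normalization and -0.05 without WT replicate 1, so Mrpl24 has no settled direction.

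Mrpl58 descends from a release factor and frees peptides from stalled ribosomes. It read 6.95 and 7.17 in WT and 7.93 in both KO arrays (log2 difference 0.87 ± 0.17, adjusted p = 0.089). The large-subunit probe set of lowest signal, that of Mrpl27, read 4.26 and 3.72 in WT and 4.71 and 4.79 in KO (0.76 ± 0.22). Mrpl48, with 5.05 and 5.12 in WT and 5.38 and 5.48 in KO, had the second smallest difference of its subunit at 0.34, with a 95% interval from -0.07 to 0.76.

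In the small subunit no gene passed the adjusted test, and the smallest p belonged to Mrps11, a homolog of a bacterial protein of the platform. Mrps11 read 7.60 and 7.62 in WT and 8.48 and 8.54 in KO, with each group's replicates within 0.1 log2 units of each other (1.87-fold, log2 difference 0.91 ± 0.15, adjusted p = 0.073). Mrps10, a protein of the small subunit's head, read 6.31 and 6.38 in WT and 7.22 and 7.23 in KO (0.88 ± 0.17). Mrps34, found only in mitochondrial ribosomes, read 6.85 and 6.97 in WT and 7.79 and 7.76 in KO (0.87 ± 0.17). In all 3 genes the genotypes were separated by more than the replicates. Mrps31, also without a bacterial counterpart, had the largest difference of the small subunit, with 6.09 and 5.85 in WT and 7.13 and 6.83 in KO (1.02 ± 0.20). Mrps35 read 7.49 and 7.84 in WT and 8.53 and 8.47 in KO (0.83 ± 0.18). Mrps16, the small-subunit probe set of highest signal, read 9.89 and 10.38 in WT and 11.04 and 10.92 in KO (0.84 ± 0.19).

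Mrps12, a protein of the decoding site, read 5.93 and 5.81 in WT and 6.35 and 6.46 in KO, a log2 difference of 0.54 ± 0.17. Mammals have a set of 3 genes related to bacterial S18, and each was higher in KO at an unadjusted p under 0.05. Mrps18b read 8.27 and 9.05 in WT and 9.60 and 9.58 in KO (0.93 ± 0.26), and Mrps18c read 7.45 and 7.96 in WT and 8.34 and 8.52 in KO (0.73 ± 0.22). Mrps18a read 7.50 and 7.20 in WT and 7.98 and 7.97 in KO (0.63 ± 0.18). The second, dimmer probe set of Mrps18c differed by -0.06.

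The smallest differences of the small subunit were those of Mrps2, Mrps14 and Mrps7, homologs of bacterial proteins, and none passed an unadjusted p of 0.05. Mrps2 read 5.54 and 5.20 in WT and 5.77 and 5.64 in KO, and its difference of 0.34 had a 95% interval from -0.14 to 0.81. Mrps14 read 4.22 and 4.90 in WT and 4.95 and 4.91 in KO, so that WT replicate 2 stood beside the KO arrays, and the difference of 0.37 became 0.03 without WT replicate 1. Mrps7 read 6.68 and 6.49 in WT and 6.93 and 7.00 in KO (0.38, interval from -0.04 to 0.80). Mrps36 is counted here by its name, although its protein is known as a part of the 2-oxoglutarate dehydrogenase complex. It had the lowest signal of the 71, with 3.58 and 3.68 in WT and 4.37 and 4.05 in KO, and without it the median over the other 70 was 0.75.

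**Figure D2:**
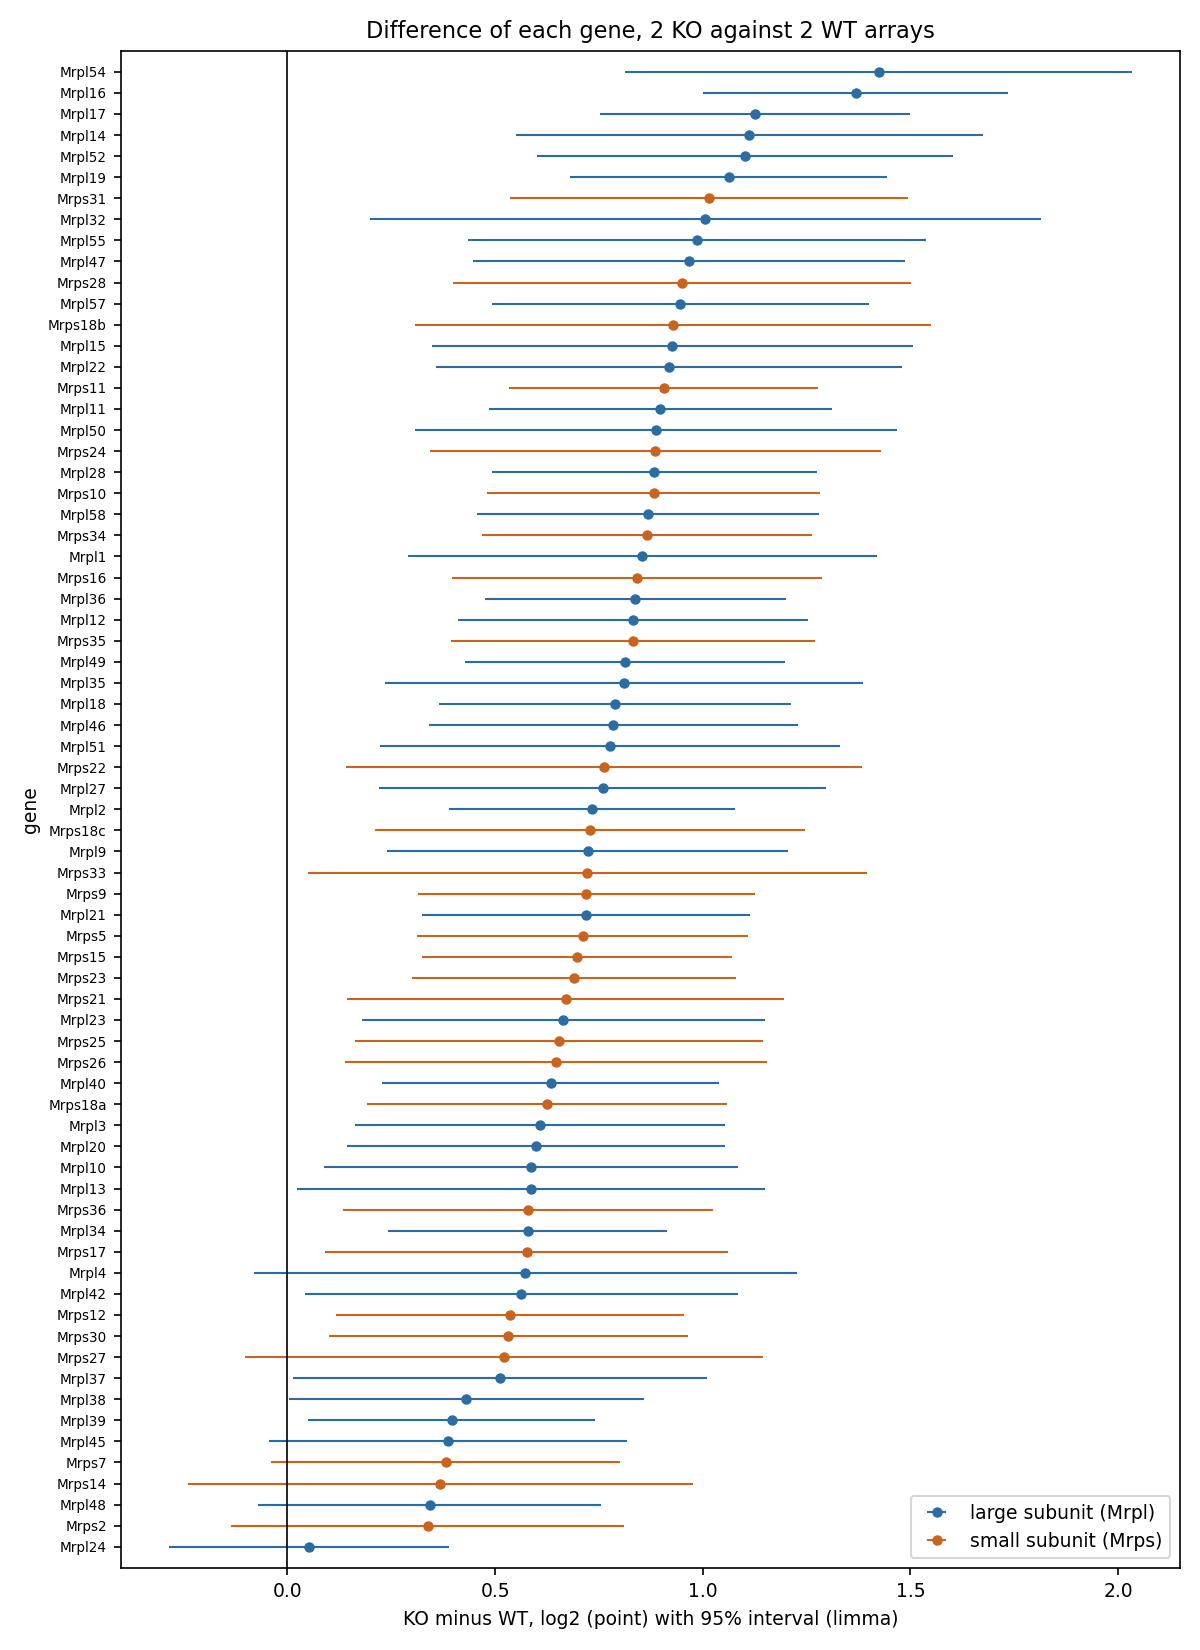
KO minus WT log2 difference of each of the 71 genes with its 95% interval from limma, sorted by difference and coloured by subunit as named. All 71 points lie above 0, from 0.05 for Mrpl24 to 1.42 for Mrpl54, and 8 intervals reach below 0.

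The genes of both subunits were higher in KO. The median log2 difference was 0.79 for the 43 large-subunit genes and 0.70 for the 28 small-subunit genes, a gap of 0.08. On the single arrays, the large-subunit median stood above the small-subunit median by 0.32 and 0.14 in WT and by 0.27 and 0.23 in KO. By medians the KO values thus lay between the WT values. By means the large subunit stood above the small by 0.304 and 0.303 in WT and by 0.381 and 0.384 in KO. By means both KO values thus lay above both WT values. In the 4 pairings of a KO array with a WT array the gap in median difference lay between 0.03 and 0.10. The proteins named Mrps18a and Mrps30 sit in the large subunit of the mammalian structure, and with them counted there the gap was 0.07, with -0.02 to 0.08 over the array pairings. At an unadjusted p under 0.05, 39 of 43 large-subunit genes and 24 of 28 small-subunit genes were higher. Without either KO replicate the large-subunit count was 11, and the small-subunit count was 3 without KO replicate 1 and 6 without KO replicate 2. The 45 genes with a bacterial homolog had a median of 0.76 and the 26 found only in mitochondria one of 0.71, and these splits were not tested.

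Within the arrays, the median of the 71 genes stood at the 83.3rd percentile of all genes on WT replicate 1, the 86.9th on WT replicate 2, the 90.3rd on KO replicate 1 and the 90.2nd on KO replicate 2. The WT arrays stood apart from each other and the KO arrays did not. WT replicate 2 was above WT replicate 1 in 56 of the 71 genes, with a median gap of 0.21, whereas over all genes the median gap was 0.02 and over genes at or above the median signal -0.09. The WT arrays differed by more than 0.5 log2 units in 25 genes and the KO arrays in none, with largest gaps of 0.98 and 0.38. For all genes these shares were 16.9% in WT and 8.08% in KO, and for those at or above the median signal 24.6% and 3.47%. The gap between the WT arrays was wider than the KO minus WT difference in 8 of the 71. Against WT replicate 1 the median difference was 0.89 for KO replicate 1 and 0.92 for KO replicate 2, and against WT replicate 2 it was 0.62 for each, with Mrpl24 as the one gene below 0. The genes of higher signal differed slightly more, with Pearson's r of 0.22 and Spearman's rho of 0.28 between mean signal and difference over 71 genes that share the same 4 arrays.

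**Figure D3:**
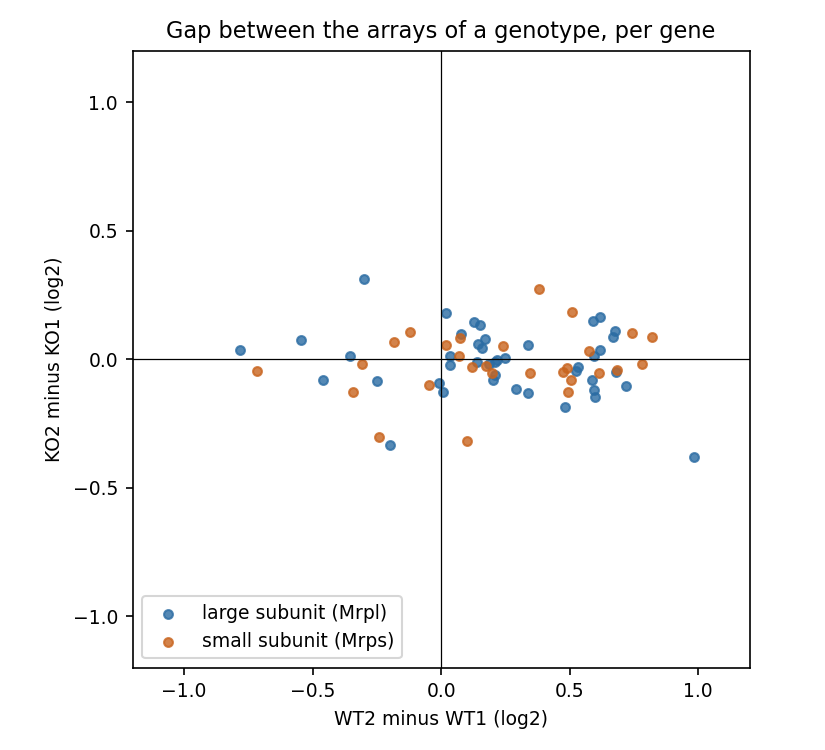
Log2 gap between the replicates of a genotype for each of the 71 genes (points, coloured by subunit), WT replicate 2 minus 1 on the horizontal axis and KO replicate 2 minus 1 on the vertical axis. The points spread along the WT axis, with a median gap of 0.21 and sizes up to 0.98, and stay within 0.38 on the KO axis.

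Most other nuclear genes of mitochondrial translation had a higher mean in KO, with smaller medians and no gene past the adjusted threshold. Their counts at an unadjusted p under 0.05 stand against 10.5% of all genes and 17.5% of those at or above the median signal. Ribosomal proteins with other names were represented by Ptcd3, Gadd45gip1 and Dap3, with log2 differences of 0.64, 0.70 and 0.54, each at an unadjusted p under 0.05. Of 29 assembly factors, 28 had a higher mean and 13 (44.8%) were higher at that p, with a median of 0.49. Mpv17l2 and Fastkd2, factors of the large subunit's assembly, differed by 0.96 and 0.83, and Ngrn, which binds the large ribosomal RNA, by 0.85. Of 14 translation factors, 12 had a higher mean and 6 (42.9%) were higher at that threshold, with a median of 0.45. These included the elongation factor Tsfm at 0.86, the recycling factor Mrrf at 0.53 and Lrpprc, which stabilises mitochondrial messenger RNAs, at 0.52. Of 16 mitochondrial transfer RNA synthetases, 15 had a higher mean and 3 (18.8%, near the background share) were higher at that threshold, namely Yars2 at 0.88, Ears2 at 0.66 and Rars2 at 0.47. The synthetase median of 0.32 was 0.13 without WT replicate 2, and 11 of the 16 were higher at the threshold without WT replicate 1, where 16.0% of all genes were. Without KO replicate 1 the medians were 0.49 for assembly factors, 0.43 for translation factors, 0.28 for synthetases and 0.64 for the other-named ribosomal proteins. Without KO replicate 2 they were 0.53, 0.46, 0.32 and 0.60.

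The organelle's own transcription machinery and its transcripts did not follow one direction. Of 6 nuclear transcription genes 4 (66.7%) passed an unadjusted p of 0.05 in the higher direction, against 10.5% of all genes. Among genes at or above the median signal that share was 17.5%. The 4 included the elongation factor Tefm (log2 difference 1.18), the initiation factor Tfb2m (0.83) and the termination factor gene Mterf1b (1.57). The list's median difference of 0.69 moved between 0.48 and 0.91 as single arrays were dropped. Mterf1b read 3.32 and 4.63 in WT and 5.59 and 5.48 in KO, so its WT arrays differed from each other by nearly as much as the genotypes did. Mterf1a, its close relative, differed by -0.29 at the lowest mean signal of the list (2.50), and the other 5 genes had a higher mean. Polrmt, the mitochondrial RNA polymerase, differed by 0.12, with overlapping arrays. Of 10 transcripts of the mitochondrial genome 8 had a lower mean in KO, with a median of -0.17, and both KO arrays lay below both WT arrays in 7, against 22.9% of all genes. The other 2 had a higher mean, 1 of them by 0.61, a larger change than any decrease. The list mean was 10.61 and 10.94 in WT and 10.71 and 10.65 in KO. ND5, a subunit of complex I, read 11.66 and 11.73 in WT and 11.40 and 11.32 in KO, and was the 1 transcript lower at an unadjusted p under 0.05 (-0.34 ± 0.11, adjusted p = 0.19). At that p 6.93% of all genes were lower, and 9.55% of those at or above the median signal. Dropping 1 WT array moved the list's median difference to -0.24 (replicate 1 dropped) or -0.13 (replicate 2 dropped). Dropping 1 KO array moved it to -0.20 or -0.14, in the same order. The count of lower transcripts moved both ways with the processing. It was 0 in the fit with no intensity trend, where 7.09% of all genes were lower. With each array centred on its median it was 0, where 3.46% were, and the median difference was -0.03. The count was 2 with quantile normalization, where 6.01% of all genes were lower. Fitted among genes at or above the median signal it was 4, where 9.58% of those genes were lower.

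Nuclear genes of respiratory complex I and of the cytosolic ribosome are given beside them. Of 33 complex I subunit genes 32 had a higher mean in KO and 20 (60.6%) were higher at an unadjusted p under 0.05, with a median log2 difference of 0.50, or 0.36 without WT replicate 1 and 0.72 without WT replicate 2. Ndufb11 had the smallest p, with 5.69 and 5.94 in WT and 6.71 and 6.85 in KO. Of 54 cytosolic ribosomal protein genes 44 had a higher mean and 15 (27.8%) were higher at that threshold, with a median of 0.19. The same background of 10.5% and 17.5% applies to both lists. In that list Rpl34 and Rpl17 rose at an adjusted p of 0.049 and 0.0497, with log2 differences of 1.66 and 1.56. Probe sets of cytosolic ribosomal protein genes may also read their many processed pseudogenes. The complex I median was 0.48 without KO replicate 1 and 0.50 without KO replicate 2. The cytosolic ribosome had medians of 0.16 and 0.21 in those fits and 0.25 without WT replicate 2. Without WT replicate 1 it had a higher mean in 37 of the 54 and a median of 0.12. The differences between these lists and the mitochondrial ribosomal protein genes were not tested.

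**Figure D4:**
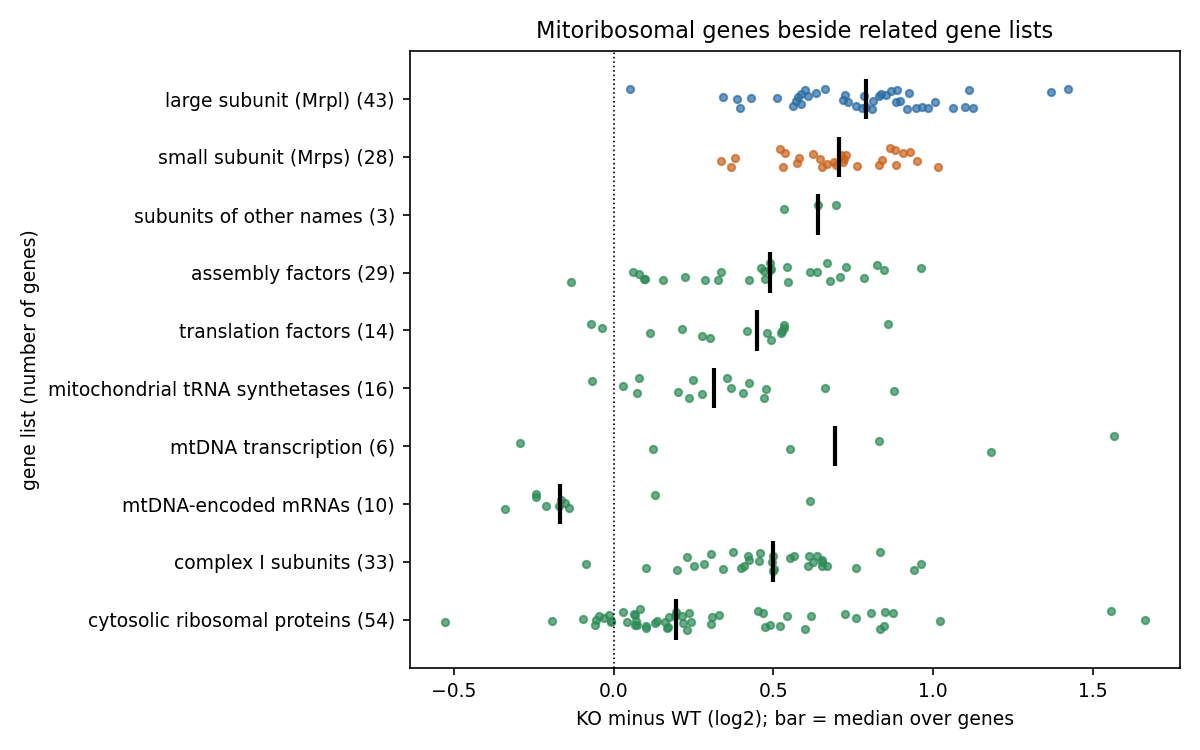
KO minus WT log2 difference of every gene in the mitochondrial ribosomal protein group and in the related gene lists, 1 point per gene with the list median marked. The medians run from 0.79 for the large and 0.70 for the small subunit through 0.50 for complex I and 0.19 for the cytosolic ribosome to -0.17 for transcripts of the mitochondrial genome.

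Many of these genes start back to back with a neighbour on the other strand. By RefSeq gene starts, 21 of the 71 had such a neighbour within 500 bases. All 21 were among the 62 genes with a promoter entry, so the other 9 may not have been scored. For Mrps11 and Mrpl46 the starts lay 42 bases apart, so that each was the other's neighbour. Mrpl46, named for this position, read 7.16 and 7.50 in WT and 8.09 and 8.14 in KO, a log2 difference of 0.78 beside 0.91 for Mrps11. The remaining 19 neighbours were not ribosomal protein genes of the organelle, and 14 of them had a higher mean in KO. Their median difference was 0.14, where that of the 19 adjoining mitochondrial ribosomal protein genes was 0.73. At an unadjusted p under 0.05, 4 of the 19 (21.1%) were higher and none lower, a share near the 17.5% of genes at or above the median signal. The 4 were Tcp1 beside Mrpl18, Eme1 beside Mrpl27, Psma2 beside Mrpl32 and Fau beside Mrpl49. The mitochondrial ribosomal protein gene had the larger difference in 18 of these 19 pairs.

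Markers of other cells and states moved between the same arrays. In bulk samples a change in the share of a cell type and a change in RNA per cell cannot be told apart. Counts of markers are given at an unadjusted p under 0.05, where 10.5% of all genes were higher and 6.93% lower, or 17.5% and 9.55% of those at or above the median signal. Of 6 erythroblast markers measured, 4 were higher and 1 was lower, and Rhag, Ermap and Tspan33 passed the adjusted test, with a list mean of 3.87 and 3.96 in WT and 5.28 and 5.48 in KO. Of 12 neutrophil markers 8 were higher and none lower, with a mean of 5.64 and 5.92 in WT and 6.54 and 6.55 in KO. Of 11 macrophage and dendritic cell markers 2 were higher, and of 6 platelet markers 1 was higher, shares of 18.2% and 16.7% that lie near the background. The 2 were H2-Aa and H2-Eb1, and both also passed the adjusted test, where 0.397% of all genes were higher. Of 8 B cell markers 2, and of 8 T and NK cell markers 1, were lower. Of 5 LSK markers Kit, Cd34 and Flt3 were lower, with a list mean of 9.43 and 9.16 in WT and 8.88 and 8.83 in KO. The other 2 LSK markers had a higher mean in KO, by at most 0.18 log2 units, and neither passed that p. Of 17 cell cycle genes 4 were higher and 1 lower, with a median log2 difference of 0.14. Of 19 genes of the response to tissue dissociation 13 were lower, with a mean of 8.82 and 8.45 in WT and 8.07 and 8.05 in KO. Without KO replicate 1 the median log2 differences were 1.01 for erythroblast, 0.82 for neutrophil and -0.65 for LSK markers, and -0.60 for dissociation genes. Without KO replicate 2 they were 0.997, 0.74, -0.56 and -0.54. With all 4 arrays they were 1.01, 0.78, -0.60 and -0.55. The cell cycle median was 0.14 without KO replicate 1 and 0.17 without KO replicate 2. Without WT replicate 1 the cell cycle median was 0.39, and 16 of the 17 genes had a higher mean in KO. Without WT replicate 2 that median was 0.10, with 9 higher and 8 lower means. None of these values is a true 0 on this scale, and the part of these lists in the result for the mitochondrial ribosomal protein genes was not tested.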

How the data were processed

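Total RNA of 4 samples (2 WT, 2 KO) was measured on 4 arrays. The authors deposited log2 values made with RMA in Affymetrix Expression Console 1.2.1, per the submitters' processing notes, with any filters not given in the sources used here. The RMA method equalises probe-level distributions across arrays and compresses low signals, so folds of dim probe sets are understated. The number of arrays limits the precision.

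Of 41345 probe sets, 25335 were annotated and 23521 named 1 gene. The brightest probe set of each of 22180 genes was fitted with limma 3.58.1 in R 4.3.3 (lmFit, eBayes with an intensity trend), KO minus WT, with two-sided p-values adjusted by Benjamini-Hochberg over all genes. Errors are standard errors, and intervals are 95% intervals from the fit. The fit was tested on simulated data.

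Genes named are those past the adjusted threshold, the 6 smallest p-values and 3 smallest differences of each subunit, the probe sets of highest and lowest signal, those with overlapping arrays or an assigned role, and up to 3 of the smallest p-values per related list; Mrpl46, Mterf1a, Polrmt and the head-to-head neighbours were named after their values were seen. The genes and lists were chosen with earlier results of these data known. Alternatives were the replicate number as a block, mean probe sets, single probe sets, a signal filter, quantile normalization, median centring, no trend, subunit by structure, and leaving out each array. Promoters and gene starts came from RefSeq GRCm38.p6.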

Additional observations from a re-analysis of the deposited data

How the results depend on the processing

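The median difference kept its sign, and 69 to 71 genes had both KO arrays above both WT arrays, under each alternative that gave these values, which single probe sets as rows and subunits by structure did not. The adjusted count of 2 became 1 with the replicate block, 1 with no intensity trend, 1 with single probe sets as rows, 4 among genes at or above the median signal and 8 with arrays centred on their medians. Centring raised the median difference to 0.87 and that of all genes to 0.13. Leaving out each array in turn gave 0 to 56 adjusted calls, 14 to 66 unadjusted calls and median differences of 0.62 to 0.90. The calls were fewest where 1 KO array was left, since the spread then came from the WT arrays alone. Mrpl24 turned to -0.013 under quantile normalization, and leaving out arrays moved it between -0.053 and 0.158. Under the replicate block Mrpl17 had an adjusted p of 0.072, and it was the only named gene of the group to lose its call there. Deviations of same-numbered samples had a correlation of 0.11, and with only 2 pairs and no shared litter or day in the labels the numbers were not taken as a pairing. With quantile normalization 142 of all genes were higher and 47 lower, with centring 320 and 42. Only 2 samples a group limit every test here, and the probe sets of Mrpl27, Mrps14 and Mrps36 read close to the array medians, where background takes a larger share of the signal.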

Other observations

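The probe sets left out of the group gave a similar but weaker picture. A second probe set existed for 9 of the 71 genes, and 7 of these 9 had a higher mean in KO, with log2 differences from -0.57 for Mrpl10 to 1.10 for Mrps16. The second probe set of Mrps16 read 7.24 and 8.19 in WT and 8.80 and 8.82 in KO, where the one used had a difference of 0.84. A further 13 probe sets named a mitochondrial ribosomal protein gene together with other genes, and the KO mean was above the WT mean in 10 of them. Their median difference was 0.44, with a range of -0.19 to 1.35. They included 7 gene symbols of the family that no single-gene probe set held.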
